A study of Mus musculus with 6 samples.

Results

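The genes described here are 8 members of the chemokine system that draws effector lymphocytes into tissue: the CXCR3 ligands Cxcl9, Cxcl10 and Cxcl11 with their receptor Cxcr3, the CC chemokine Ccl5, the membrane-bound chemokine Cxcl16 with its receptor Cxcr6, and Xcl1. They were chosen by gene symbol, capitals ignored, and all 8 were found once each among the 22274 genes of the deposited table. RNA came from mouse popliteal lymph nodes, which drain the foot, after footpad injections of extracellular vesicles (EVs, membrane particles that cells shed) on alternate days over 10 days. The EVs came from UM-UC-3 cells (3 nodes), a line grown from a human bladder carcinoma, or from SV-HUC-1 cells (3 nodes), an immortalised line from normal human urothelium. The labels used here do not state the strain, sex or age of the mice, nor whether the strain has a full set of T cells.

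The table names its 6 libraries LN-1 to LN-6, and no label ties these numbers to an EV source. Values are therefore given for the 6 nodes as 1 set, no EV group is compared, and no p-value is given. The spread over the 6 nodes holds the difference between the EV sources, if there is one, together with the differences between nodes. Levels are CPM (counts per 1000000 counted reads), each library scaled to its own total, and totals ran from 13039899 to 18093707 counts. Intervals on single libraries are exact Poisson 95% intervals and cover counting error only.

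Chemokines are small secreted proteins that guide cells through receptors of the G protein-coupled family. CXCL9, CXCL10 and CXCL11 are produced by many cell types on exposure to interferons, CXCL9 chiefly to interferon gamma, and all act on CXCR3 of Th1 cells, effector CD8 T cells and NK cells. In a lymph node, CXCL9 and CXCL10 from stromal and dendritic cells are known to position T cells next to antigen-presenting cells, and XCL1 from NK and CD8 T cells attracts the cross-presenting dendritic cells that carry XCR1.

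The coding sequence around the first cysteines sets the family to which each ligand belongs. The stretches printed here come from GENCODE M21 transcripts on GRCm38 (mm10), with the cysteine codons of the motif in capitals. In Cxcl9, Cxcl10, Cxcl11 and Cxcl16 another codon separates the cysteines (CXC), in Ccl5 they are adjacent (CC), and in Xcl1 there is a single one at this place (C).
Cxcl9 (chr5:92326830-92326862, minus strand): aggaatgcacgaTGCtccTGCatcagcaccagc
Cxcl10 (chr5:92348169-92348201, minus strand): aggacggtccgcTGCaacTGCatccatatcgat
Cxcl11 (chr5:92361288-92361320, minus strand): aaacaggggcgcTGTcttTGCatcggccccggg
Cxcl16 (chr11:70459115-70459147, minus strand): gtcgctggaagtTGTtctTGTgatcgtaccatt
Ccl5 (chr11:83529230-83529259, minus strand): gacaccactcccTGCTGCtttgcctacctc
Xcl1 (chr1:164932963-164932989, minus strand): gaagagagtagcTGTgtgaacttacaa

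Cxcl11 has a second feature that bears on its reads. GENCODE M21 lists it as a polymorphic pseudogene, a gene that is intact in some individuals or strains and broken in the reference genome. One of its transcript models reads straight through the first 60 coding bases, and the other skips 2 of them (chr5:92363177-92363178) as if they were an intron. Read with these 2 bases, the frame ends after 36 codons, and without them it runs for 99 codons. The 2 bases are in capitals in the stretch that starts at the initiation codon.
Cxcl11 (chr5:92363155-92363214, minus strand): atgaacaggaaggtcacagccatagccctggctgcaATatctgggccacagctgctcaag
The deposited counts do not show which allele these mice carried.

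Ordered by level per length (CPM per kilobase of annotated exon), Ccl5 came first, followed by Cxcl16, Cxcr6, Cxcl9, Xcl1, Cxcr3, Cxcl10 and Cxcl11. The median over the 6 libraries was 114.8 CPM per kilobase for Ccl5, 43.3 for Cxcl16 and 18.5 for Cxcr6. It was 10.3 for Cxcl9, 6.70 for Xcl1, 4.72 for Cxcr3 and 3.69 for Cxcl10, and 0.178 for Cxcl11. The first 2 and the last of these steps were clear of the spread: the lowest library of Ccl5 lay above the highest of Cxcl16, the lowest of Cxcl16 above the highest of Cxcr6, and the lowest of Cxcl10 above the highest of Cxcl11. Between the other neighbours the ranges overlapped, although within a library the order held in 6 of 6 libraries for Cxcr6 over Cxcl9, for Cxcl9 over Xcl1 and for Xcl1 over Cxcr3, and in 5 of 6 for Cxcr3 over Cxcl10. Among the 13676 genes with a median of at least 1 CPM, 98.1% had a lower level per length than Ccl5, 93.2% a lower level than Cxcl16 and 33.2% a lower level than Cxcl10.

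**Figure D1:**
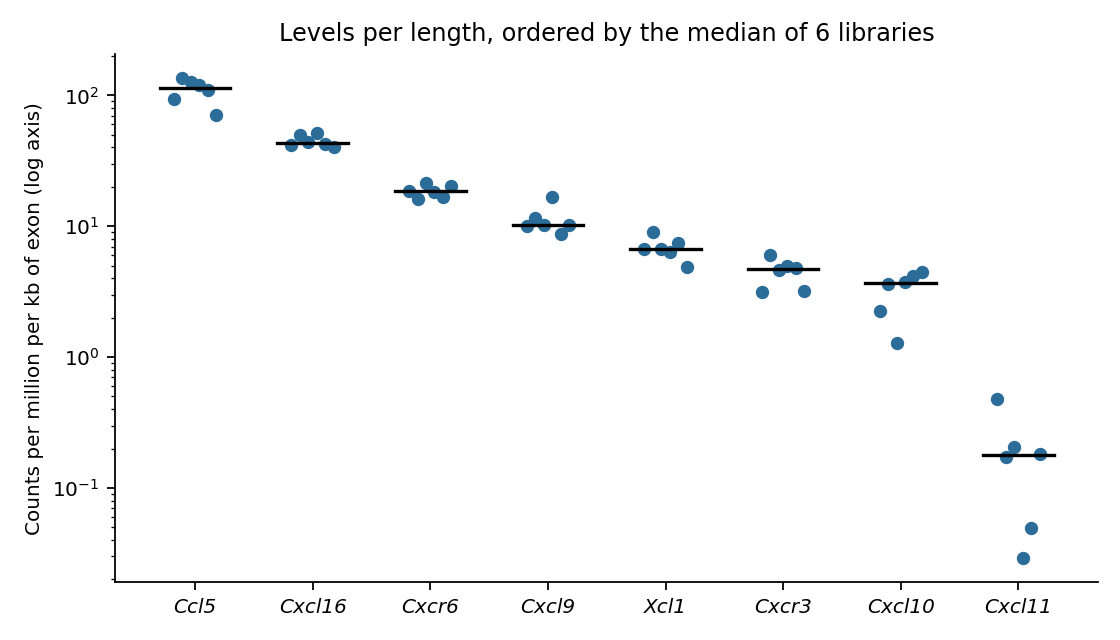
Level of each gene in CPM per kilobase of exon, on a log axis, with 1 point per library and a line at the median of the 6 libraries. The medians fall from 114.8 for Ccl5 to 0.178 for Cxcl11, and the points of Cxcl10 and Cxcl11 do not overlap.

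Cxcl9 (ENSMUSG00000029417, chr5:92321347-92328079, minus strand), the CXCR3 ligand most dependent on interferon gamma, was at 26.5 CPM in its lowest library, at a median of 31.0 and at 50.7 in its highest. The highest library was LN-4, with 918 counts and an interval of 47.5 to 54.1 CPM. The next, LN-2, was at 35.1 CPM (32.0 to 38.4), so LN-4 stood apart from the other 5 by more than counting error. Those 5 libraries lay between 26.5 and 35.1 CPM. The ratio of highest to lowest was 1.91, and 1.32 without LN-4.

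Cxcl10 (ENSMUSG00000034855, chr5:92346638-92348889, minus strand), which encodes the ligand also called IP-10, lay lower and varied more. It was at 2.90 CPM in LN-3, its lowest library, at a median of 8.32 CPM and at 10.1 CPM in LN-6, its highest. LN-3 (41 counts, interval 2.08 to 3.93 CPM) and LN-1 (76 counts, 4.01 to 6.37 CPM) were both below the other 4 libraries, whose levels ran from 8.13 to 10.1 CPM. The ratio of highest to lowest was 3.49, and fell to 1.99 without LN-3. Cxcl9 and Cxcl10 thus had their extremes in different nodes, and the ratio of Cxcl9 to Cxcl10 per length ran from 2.12 in LN-5 to 7.99 in LN-3. Of the annotated exon bases of Cxcl10, 5.91% are shared with Art3, a gene on the opposite strand with 76 to 320 counts per library, and whether reads were counted by strand is not given in the sources used here.

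Cxcl11 (ENSMUSG00000060183, chr5:92359544-92365485, minus strand) was close to the limit of detection. Its counts were 27 in LN-1, 11 in LN-3, 9 in each of LN-2 and LN-6, 3 in LN-5 and 2 in LN-4, a median of 0.675 CPM. LN-1 was the highest, and its interval of 1.19 to 2.63 CPM did not reach those of LN-4 and LN-5 (upper limits 0.399 and 0.546 CPM). The ratio of LN-1 to LN-4 was 16.4, with an exact 95% interval of 4.11 to 141.9 that covers counting error only. A processed pseudogene on the opposite strand, Gm2673, shares 41.7% of the exon bases of Cxcl11, so these few reads cannot be assigned to Cxcl11 alone without knowing the strand.

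**Figure D2:**
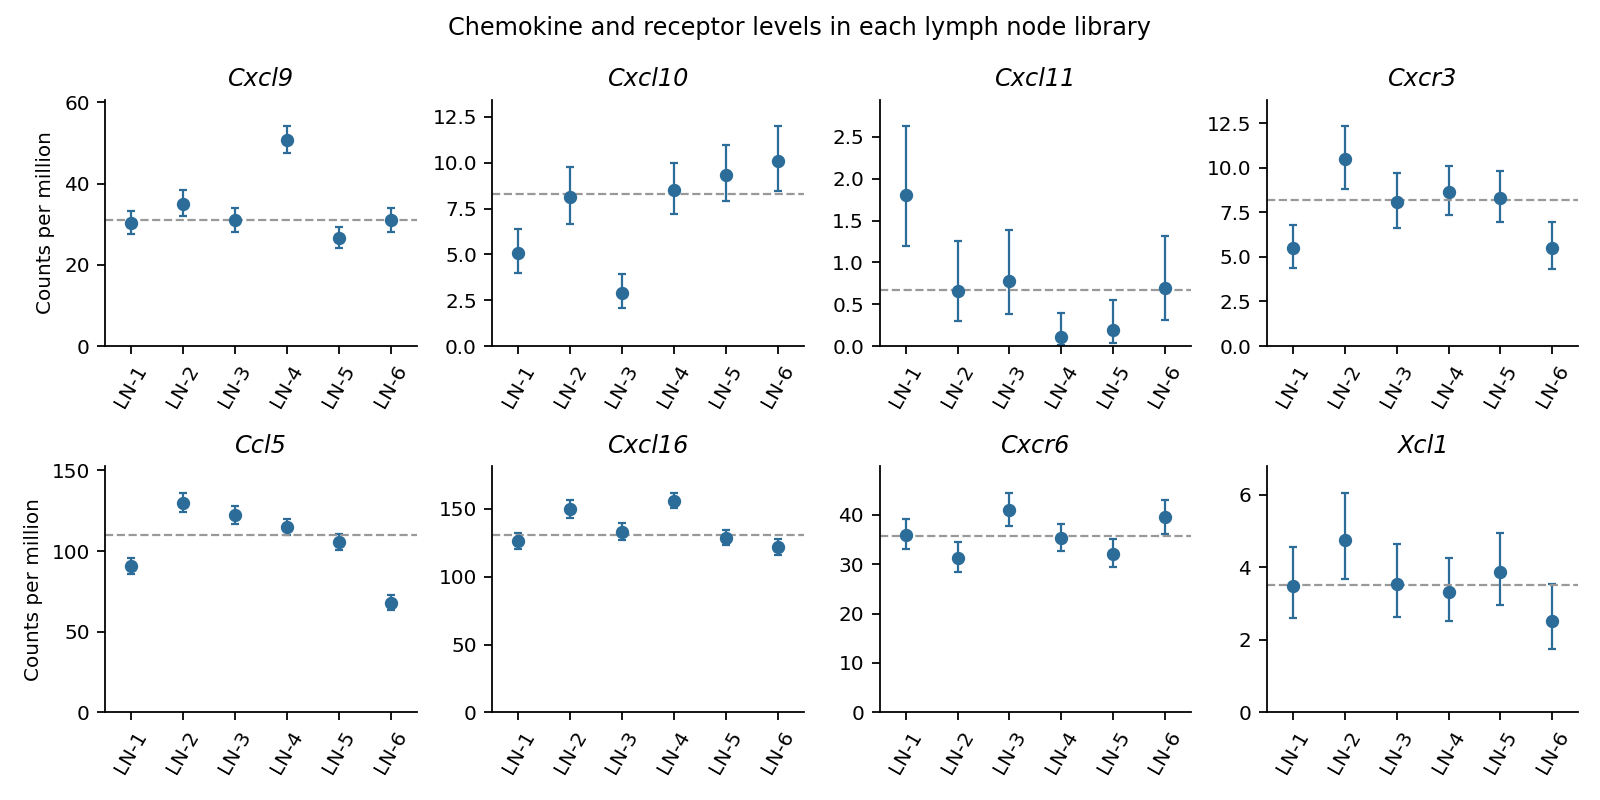
CPM in each of the 6 libraries (LN-1 to LN-6), 1 panel per gene, each axis from 0. Bars are exact Poisson 95% intervals for counting error, and the dashed line is the median. Cxcl9 is highest in LN-4 at 50.7, Cxcl10 is lowest in LN-3 at 2.90, and Ccl5 is lowest in LN-6 at 68.0.

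Cxcl9, Cxcl10 and Cxcl11 lie next to each other on chromosome 5. The promoters of Cxcl9 and Cxcl10 are printed because these are the interferon-inducible ligands that were clearly detected. Each sequence is the 250 bases before the RefSeq start on GRCm38.p6, with matches to the interferon-stimulated response element, the target of interferon-activated factors (searched as GAAANNGAA), and to NF-kB (GGGNNNTTC) in capitals.
Cxcl9 (chr5:92328080-92328329, minus strand): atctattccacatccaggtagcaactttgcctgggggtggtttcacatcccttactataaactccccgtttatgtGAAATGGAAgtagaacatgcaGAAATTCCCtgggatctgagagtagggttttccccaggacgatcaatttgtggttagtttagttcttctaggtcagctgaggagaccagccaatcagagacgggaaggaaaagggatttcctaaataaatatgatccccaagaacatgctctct
Cxcl10 (chr5:92348890-92349139, minus strand): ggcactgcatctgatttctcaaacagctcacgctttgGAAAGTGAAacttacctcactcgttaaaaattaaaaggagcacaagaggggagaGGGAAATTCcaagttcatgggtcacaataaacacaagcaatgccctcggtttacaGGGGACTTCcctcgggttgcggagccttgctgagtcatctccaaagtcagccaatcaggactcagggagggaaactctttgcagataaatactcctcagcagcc
In Cxcl9 the response element letters start 175 bases before the start and the NF-kB letters, on the other strand, 154 bases before it. In Cxcl10 the response element letters start 213 bases before the start and the NF-kB letters 159 and 104 bases before it. Both strands were searched and no matches overlapped. Of the 32851 mouse promoters in the table, 7.13% held the first motif and 11.8% the second, so such matches are common. With 1 more base of each consensus the Cxcl10 matches stayed and the Cxcl9 matches did not, and the shares of all promoters were 2.98% and 4.65%.

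Promoters were listed for 5 of the 8 members. The T-box, bound by T-bet, was also searched, as TCACACNT (2.95% of promoters). Cxcr3 held 1 T-box match, 234 bases before its start, and 1 NF-kB match, and Xcl1 held 1 NF-kB match. The window of Cxcr6 held none of these letters. A match describes a sequence and does not show that a factor was bound in these nodes.

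Cxcr3 (ENSMUSG00000050232, chrX:101731535-101734269, minus strand), the receptor shared by these ligands, was at 5.49 CPM in LN-1, the lowest, at a median of 8.17 CPM and at 10.5 CPM in LN-2, the highest. LN-1 and LN-6 (5.52 CPM) lay below the other 4 libraries, which ran from 8.06 to 10.5 CPM. The ratio of highest to lowest was 1.91. The intervals of LN-1 (4.37 to 6.81 CPM) and LN-6 (4.32 to 6.95 CPM) overlapped that of LN-3 (6.64 to 9.68 CPM). The full order of the nodes was not that of any CXCR3 ligand, but LN-4 and LN-2 were highest for both Cxcr3 and Cxcl9. LN-4, highest for Cxcl9, was next to highest for Cxcr3, at 8.62 CPM. LN-2, highest for Cxcr3, was next to highest for Cxcl9, at 35.1 CPM. LN-6, highest for Cxcl10, was next to lowest for Cxcr3.

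Ccl5 (ENSMUSG00000035042, chr11:83525778-83530518, minus strand), or RANTES, is made by effector and memory T cells and NK cells and attracts further T cells and monocytes. It was at 68.0 CPM in LN-6, its lowest library, at a median of 110.2 CPM and at 130.1 CPM in LN-2, its highest. LN-6 and LN-1 (90.9 CPM) were below the remaining 4, which ran from 105.6 to 130.1 CPM. With 887 to 2077 counts per library, these gaps were wider than counting error, and the ratio of highest to lowest was 1.91, or 1.43 without LN-6. Of the 3728 genes with a median level within 2-fold of that of Ccl5, 97.2% had a smaller SD of log2 CPM over the nodes.

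Cxcl16 (ENSMUSG00000018920, chr11:70453983-70459984, minus strand) encodes a transmembrane chemokine of dendritic cells and macrophages that is also a scavenger receptor. It was one of the most even members, at 122.0 CPM in LN-6, a median of 130.9 CPM and 156.2 CPM in LN-4. LN-4 and LN-2 (150.0 CPM) were the high libraries, and the ratio of highest to lowest was 1.28. Its counts were not whole numbers, and 18.3% of its exon bases are shared with Zmynd15 on the opposite strand (483.49 to 747.34 counts). Whether reads were divided between these 2 genes is not given in the sources used here. Its receptor Cxcr6 (ENSMUSG00000048521, chr9:123806475-123811760, plus strand), carried by resident memory T cells, NKT cells and innate lymphoid cells, was as even. It was at 31.3 CPM in LN-2, a median of 35.6 CPM and 41.0 CPM in LN-3, a ratio of 1.31, and it was low in LN-2, where Cxcl16 was high.

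Xcl1 (ENSMUSG00000026573, chr1:164931644-164935527, minus strand), lymphotactin, rested on 33 to 65 counts. It was at 2.53 CPM in LN-6, a median of 3.51 CPM and 4.76 CPM in LN-2, a ratio of 1.88. Its variance over the libraries was 2.01 times that of counting alone, the smallest of the 8 members, and only the intervals of LN-6 (1.74 to 3.55 CPM) and LN-2 (3.67 to 6.07 CPM) were clear of each other. Of its exon bases, 18.7% are shared with the opposite-strand transcript Gm20743.

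The spread of the members can be set beside that of all genes. Of genes with a median of at least 1 CPM, 15.3% had a highest library at least 2-fold above the lowest. Among the 7 members at that level, 1 did, Cxcl10, with Cxcl11 below the level. The median ratio of these 7 was 1.91, and that of all 13676 genes was 1.37. Cxcl10 was well above the 2-fold line at 3.49, and just below it stood Ccl5, Cxcl9 and Cxcr3 at 1.91 and Xcl1 at 1.88. Of the genes with a median level within 2-fold of theirs, 95.1% had a smaller SD of log2 CPM than Cxcl10, 91.9% than Cxcl9, 80.8% than Cxcr3, 61.5% than Cxcl16, 59.2% than Cxcr6 and 36.6% than Xcl1. The extremes were spread over the nodes: LN-2 was the highest library for 3 members and LN-6 the lowest for 3.

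**Figure D3:**
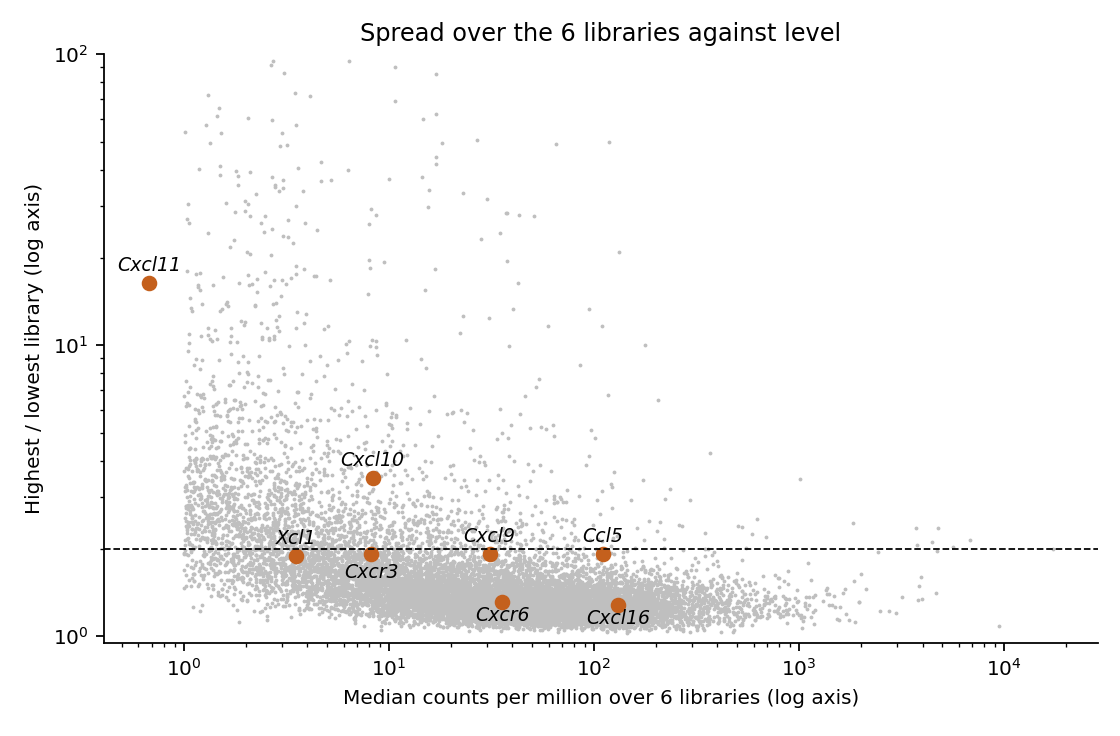
Ratio of the highest to the lowest library against the median CPM, both on log axes, for genes with a median of at least 1 (grey) and the 8 members (orange); the dashed line is at 2-fold. Cxcl10 and Cxcl11 lie above the line, 4 members lie just under it, and Cxcl16 and Cxcr6 lie lowest. Of the grey genes, 48 with a ratio above 100 or a lowest library at 0 are not drawn.

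Most of the interferon genes upstream of the CXCR3 ligands had a ratio of highest to lowest below 2, as did most genes. Ifng, the gene of interferon gamma, was at a median of 1.33 CPM on 11 to 30 counts (0.844 to 1.66, a ratio of 1.97). Ifnb1, that of interferon beta, had 0 counts in each library, and 3 counts, the limit a count of 0 allows, amount to 0.166 to 0.230 CPM by library. Irf1, a transcription factor induced by interferon gamma, ran from 176.9 to 218.1 CPM. Of the 15 ligand, receptor and signalling genes of this list with a median of at least 1 CPM, 0 reached a 2-fold ratio, and their median ratio was 1.23. Among all genes with such a median, 15.3% reached a 2-fold ratio, and the median ratio was 1.37. Among genes with a median of at least 5 CPM, 7.04% reached it. Of 15 interferon gamma targets, with a median ratio of 1.395, 1 reached a 2-fold ratio. It was Ido1, a tryptophan-degrading enzyme that ran from 0.732 CPM in LN-2 to 8.37 CPM in LN-1.

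Type I interferon targets varied more, and in an order of nodes that Cxcl10 did not share. Of the 12 in the list, 10 had a ratio of at least 2, against 15.3% of all genes with a median of at least 1 CPM. The median ratio of the 12 was 2.60, and 10 of them had their highest level in LN-1. The share of all genes highest in LN-1 was not determined. Ifit3, an antiviral RNA-binding protein, was at 59.8 CPM in LN-1, 30.3 in LN-3 and 27.3 in LN-4, and at 10.2 to 13.8 CPM in the other libraries. Irf7, the regulator of the type I response, was likewise highest in LN-1 (138.6 CPM) and next in LN-3 (97.2 CPM). Cxcl10, itself a gene of this response, was lowest in those 2 libraries, at 5.09 and 2.90 CPM. Cxcl11 was highest in LN-1, at 27 counts. Its 11 counts in LN-3 could not be told from the 9 counts in each of LN-2 and LN-6.

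**Figure D4:**
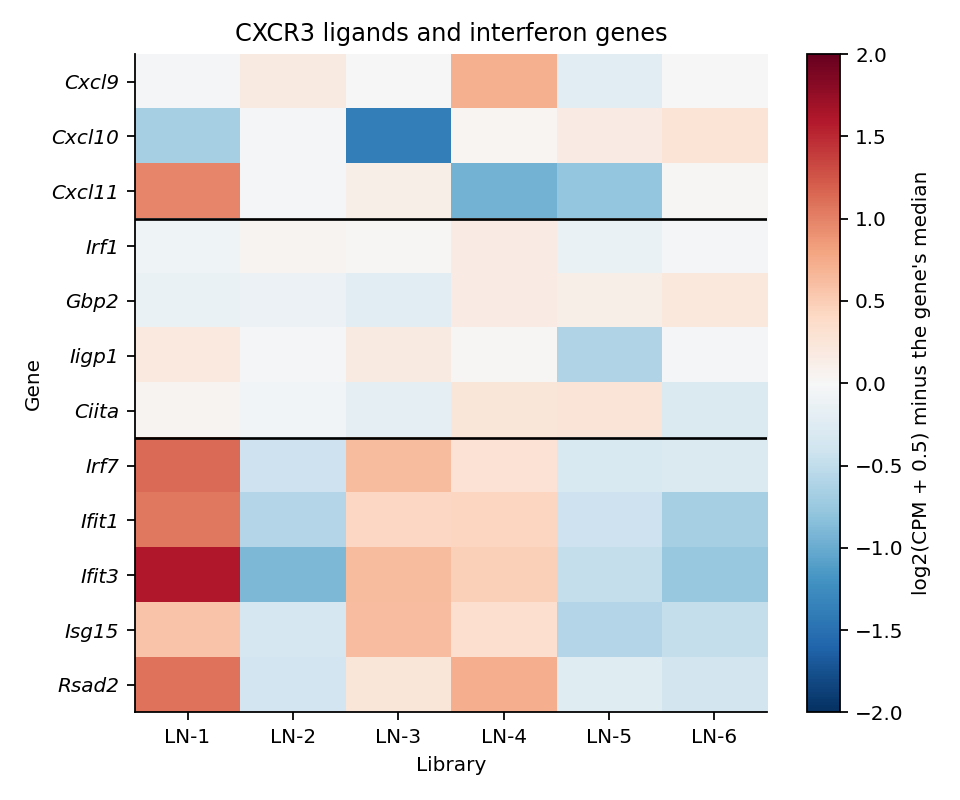
Deviation of log2(CPM + 0.5) from each gene's own median, by library. The CXCR3 ligands are at the top, and the other genes are a selection. Irf1, Gbp2, Iigp1 and Ciita (middle) respond to interferon gamma, and Irf7, Ifit1, Ifit3, Isg15 and Rsad2 (bottom) are type I interferon targets. Ido1, the interferon gamma target with a 2-fold ratio, was highest in LN-1 and is not drawn. Red is above and blue below the median. LN-1 is the reddest column for the type I targets, whereas Cxcl10 is below its median there and lowest in LN-3.

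Among direct partners, Ccr1, a receptor of Ccl5, ran from 7.36 to 15.0 CPM. Xcr1, the receptor of Xcl1, varied more than its ligand, from 13.2 CPM in LN-6 to 45.3 CPM in LN-4, a ratio of 3.43. Both Xcl1 and Xcr1 were lowest in LN-6. For Xcl1 only LN-6 and LN-2 could be told apart by counting error, so its order over the other libraries is not resolved. LN-4, highest for Xcr1, was at 3.32 CPM for Xcl1, with an interval of 2.53 to 4.27 CPM. LN-2, highest for Xcl1, was at 29.9 CPM for Xcr1, whose median was 30.9 CPM. Ackr3, an atypical receptor that binds CXCL11, ran from 7.24 CPM in LN-4 to 16.2 CPM in LN-6. Adam10 and Adam17, the proteases that shed CXCL16, had ratios of 1.14 and 1.26, below the median of 1.37 over all genes. Dpp4, which trims CXCL10, was above that median, at 1.44. The related CC chemokines Ccl3 and Ccl4 were near the limit of detection, at medians of 12.5 and 11.5 counts. Of this list of 12 genes, 9 had a median of at least 1 CPM. A ratio of at least 2 was reached by 3 of these (Ccr1, Xcr1 and Ackr3), against 15.3% of all genes at that level.

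Markers of the lymphocytes that respond to these chemokines were at very different levels. Of the T cell genes, those of the receptor complex were low: Cd3e ran from 2.83 to 5.64 CPM, Cd3d from 1.76 to 4.69 CPM and Cd3g from 7.59 to 17.5 CPM. B cell genes were high, with Cd79a from 894.8 to 1220 CPM. Per kilobase, the median of Cd79b, a chain of the B cell receptor, was 166.2 times that of Cd3g, 261.8 times that of Cd3d and 572.7 times that of Cd3e. The NK cell receptor Ncr1 ran from 31.3 to 55.1 CPM and the cytotoxic gene Nkg7 from 19.9 to 28.8 CPM. In medians per kilobase, Ncr1 was at 31.1 and Nkg7 at 26.3, against 0.875 for Cd3e, 1.91 for Cd3d and 3.01 for Cd3g. The NK cell list was not uniform. Il2rb, an interleukin receptor chain that T cells share, was at 25.8 CPM per kilobase. Klrd1 at 5.37 and Klrk1 at 4.76 lay above the Cd3 genes by less, and Klrb1c at 2.34 lay between Cd3d and Cd3g. Klre1 at 0.564 and Klra8 at 0.157 lay below the Cd3 genes. The T cell list was not uniform either. Lck, the kinase of T cell receptor signalling, was at 27.7 CPM per kilobase, Cd4 at 30.0 and Cd8a at 9.79, all above the Cd3 genes. Some dendritic cells of mice express Cd4 or Cd8a, and NK cells express Lck. These lists therefore give no order between T cells and NK cells. In whole nodes, fewer cells of a type and less RNA per cell cannot be told apart.

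**Figure D5:**
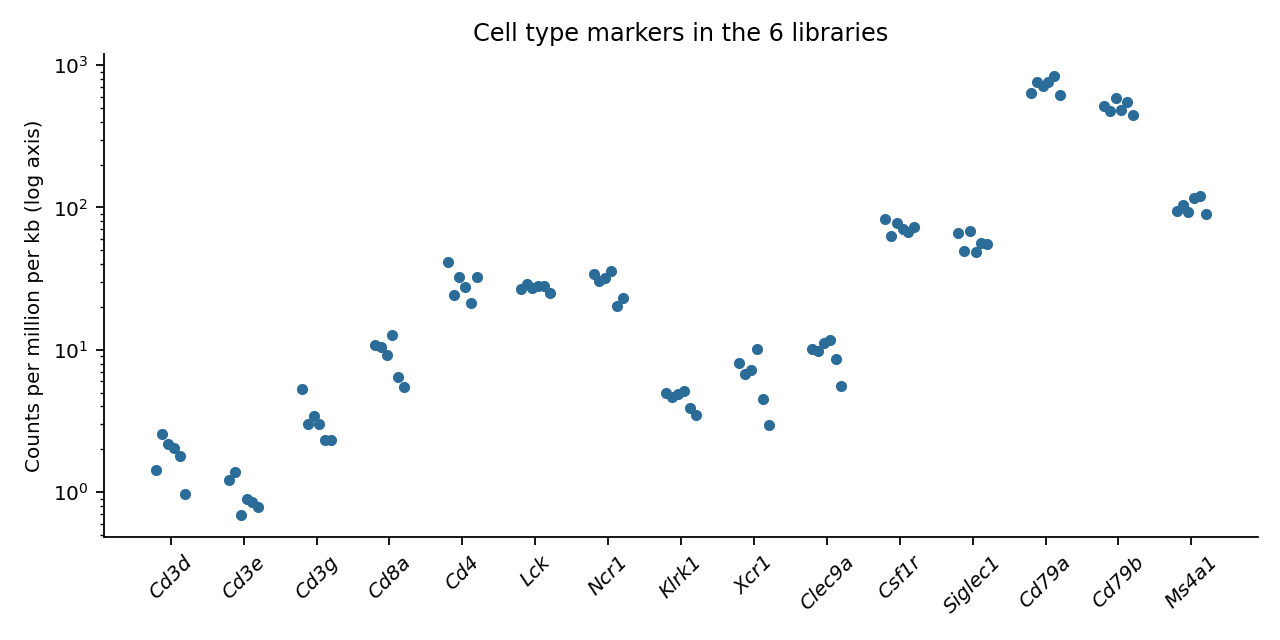
CPM per kilobase of exon (log axis) for markers of T cells (Cd3d to Lck), NK cells (Ncr1, Klrk1), cross-presenting dendritic cells (Xcr1, Clec9a), macrophages (Csf1r, Siglec1) and B cells (Cd79a, Cd79b, Ms4a1), with 1 point per library from LN-1 (left) to LN-6 (right). Of the markers drawn, the Cd3 genes have the lowest medians and the B cell genes the highest. In the medians per kilobase, Cd79b is at 166.2 to 572.7 times the Cd3 genes. The points of Cd3g overlap those of Klrk1 and Xcr1. The NK cell genes Klre1 and Klra8, with lower medians than the Cd3 genes, are not drawn.

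Markers of tissue around the node and of neutrophils differed between libraries. The summed level of 7 skeletal muscle genes was 940.3 CPM in LN-2 and 221.8 CPM in LN-3, and 2.24 to 27.8 CPM elsewhere. That of 7 adipocyte genes was 1729 CPM in LN-6 and 850.9 CPM in LN-2, and 55.9 to 291.2 CPM elsewhere, and that of 7 neutrophil genes ran from 116.0 CPM in LN-3 to 537.9 CPM in LN-4. LN-6, with the most adipocyte signal, was the lowest library for Ccl5, Cxcl16 and Xcl1 and the highest for Cxcl10. It was also the lowest for 5 of 5 B cell and 7 of 9 T cell genes. Of the stromal, endothelial and macrophage genes listed, 0 of 8, 0 of 7 and 2 of 9 were lowest there. Lists other than those of lymphocytes also had genes lowest in LN-6. These were 8 of 15 interferon signalling genes, 6 of 15 interferon gamma targets, 6 of 12 type I interferon targets and 3 of 8 dendritic cell genes. The share of all genes lowest in LN-6 was not determined. LN-4, with the highest Cxcl9, had the highest sums for NK cell (232.1 CPM), dendritic cell (497.5 CPM) and neutrophil genes. Irf1 was also highest there, at 218.1 CPM. Ifng, on 11 to 30 counts per library, was at 1.66 CPM there and 1.61 CPM in LN-2, too close to tell apart. The sums of the interferon signalling list (3276 CPM) and of the interferon gamma targets (2093 CPM) were highest in LN-4 too. In LN-1, the next, they were 3214 and 2016 CPM. Of the 15 interferon gamma targets, 3 had their highest level in LN-4 and 4 in LN-1. Ido1 was at 0.829 CPM in LN-4 and 8.37 CPM in LN-1. LN-4 was also highest for 6 of 6 blood genes, mainly of haemoglobin. Their sum was 1081 CPM there, 797.0 CPM in LN-2 and 85.4 to 202.1 CPM elsewhere. The share of all genes highest in LN-4 was not determined either. The part of these cells and of interferon in the levels of the chemokines was not tested. Leaving out LN-2 and LN-6 removes both the highest and the lowest library of Ccl5 and Xcl1, whose ratios were then 1.34 and 1.17, and neither extreme of Cxcl9, so the change in these ratios follows from which libraries were left out. The ratio of Cxcl10, which loses its highest library, went from 3.49 to 3.23.

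The only member with at least 20 median counts and a ratio of 2 or more was Cxcl10, and its pattern over the 6 libraries was most like those of Gm32687, Gm4737 and Abcb10, a mitochondrial transporter. The root mean square difference from Cxcl10, after each gene was centred on its own median of log2 CPM, was 0.14, 0.21 and 0.24. A gene with no variation would have been at 0.64. These are the closest of 13669 genes over 6 libraries.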

How the data were processed

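Total RNA of mouse popliteal nodes was made into libraries with an Illumina TruSeq kit, per the labels' protocols. The submitters' processing notes list HISAT2, version 2.4, and mm10; no source used here names the counting tool, the annotation or the strand setting. The authors deposited 1 table with an estimated count and an FPKM column per library, per the file headers. The 6 count columns were used, of which 8.83% to 9.33% of values were not whole. They were taken as the 6 nodes of the series from the tissue in their names, since library numbers match no single sample. The other 6 columns of per-library values were not used. Each row had a gene identifier.

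CPM, ratios and log2(CPM + 0.5) were computed with Python 3.11.15, numpy 2.4.6 and pandas 2.3.3, Poisson limits with scipy 1.17.1, and alternative scalings with edgeR 4.0.16 (TMM) and DESeq2 1.42.0 on rounded counts. The formulas were tested on simulated data. Exon lengths and coordinates are from GENCODE M21, counted from 1, and promoters from RefSeq. The 15 pairs of libraries differed beyond counting error, with a mean chi-square per gene of 9.71 to 56.7 where counting alone gives 1, so none was counted as a repeat. Named genes are the 8 members, their partners, interferon genes, markers that set what cells the node holds, and the 3 genes most alike in pattern. The 17 gene lists and the members were chosen with earlier results of these data known. List genes were matched through GENCODE names, and 3 of them are not reported here and were left out of the list counts and sums.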

Additional observations from a re-analysis of the deposited data

Results flagged for a closer look

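The level of Cxcl9 in LN-4, 50.7 CPM, lay far from the other 5 libraries, the nearest of which was at 35.1 CPM. The gap was 0.648 of the whole range, above Dixon's 95% critical value for 6 samples. The summed level of skeletal muscle genes in LN-2, 940.3 CPM, was apart in the same way, with the next library at 221.8 CPM and a gap of 0.766 of the range. These are 2 of the 25 genes and summed lists looked at, and chance flags about 1 in 20.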

How the results depend on the processing

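The median CPM of each of the 8 members moved by less than 1 SD over the libraries in 80 of 80 alternatives. These were TMM, DESeq2 size factors, immunoglobulin and mitochondrial genes left out of the totals, each library left out, and LN-2 with LN-6 left out. Leaving out 1 of 6 libraries cannot move a median by 1 SD, so those alternatives could only come out the same. The order by level per length was the same with the longest transcript as the length. The ratio of highest to lowest moved by more than 1 SD of log2 CPM in 10 of 88 alternatives, of which 7 left out 1 library, 2 left out LN-2 and LN-6, and 1, with 0.5 CPM added, took Cxcl11 from 16.4 to 3.78. Leaving out 1 library gave ratios of 1.32 to 1.91 for Cxcl9, 1.99 to 3.49 for Cxcl10, 7.03 to 16.4 for Cxcl11, 1.43 to 1.91 for Ccl5 and 1.44 to 1.88 for Xcl1. A ratio cannot change when the library left out is neither the highest nor the lowest. The number of members with a 2-fold ratio, counted over all 8 with Cxcl11 among them, ranged from 1 (without LN-3) to 2. Among genes with a median of at least 1 CPM, which leaves out Cxcl11, the number with such a ratio was 2090. It was 1584 to 1914 with 1 library left out. It was 1226 without LN-2 and LN-6, an alternative chosen after seeing the data, 815 with a median of at least 5 CPM, and 3521 among genes with no library at 0; these differ in the genes or libraries they hold. Depth limits Cxcl11 and Xcl1, at medians of 9 and 56 counts. No paired analysis was possible because no library is tied to an EV source.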
